A study of Mus musculus with 6 samples.

Results

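The genes that encode inhibitors of cyclin-dependent kinases (CDKs) were examined for binding of the transcription factor E2F1. They were 8 of the 21883 protein-coding genes on the assembled chromosomes, chosen by name: Cdkn1a, Cdkn1b and Cdkn1c of the Cip/Kip family, Cdkn2a, Cdkn2b, Cdkn2c and Cdkn2d of the INK4 family, and Cdkn3. A peak of chromatin immunoprecipitation sequencing (ChIP-seq) was assigned to a gene when any base of it lay inside the gene's span on GRCm38 or within 1000 bp of that span. By this rule 11 of the 15863 peaks of the E2F1 libraries belonged to these genes, and 0 peaks of the control libraries did.

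The cells were NIH/3T3, an immortal line of mouse embryonic fibroblasts that is reported to lack the Cdkn2a locus. E2F1 cells carried a stably integrated doxycycline-inducible E2F1 construct, and EV cells a doxycycline-inducible empty vector. Both groups were starved for 48 hours in medium with 0.25% serum, which holds fibroblasts in a resting state, and were then given doxycycline for 12 hours, so the drug was present in the controls too. The treatment protocol gives 500 ng/ml doxycycline, but the names of the peaks carry a different number without a unit, so the dose in these cultures was not settled. There were 2 libraries per group, and nothing in the labels says whether they came from separate cultures or whether the lines are single clones. The 2 input samples of EV cells were not used here, and peak lists hold no expression with which to check the cell type. The study concerned the genes through which induced E2F1 brings resting cells back into the cycle.

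CDK inhibitors hold back the kinases that start DNA replication and division. INK4 proteins bind CDK4 and CDK6 and keep D-type cyclins off them, while Cip/Kip proteins bind whole cyclin-CDK complexes, above all those of CDK2. Active CDKs phosphorylate the retinoblastoma protein, which then releases E2F factors, so these inhibitors lie upstream of E2F1 in the resting fibroblast. E2F factors can in turn bind promoters of cell cycle genes, some inhibitor genes among them.

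Promoter sequences are shown first, because the results turn on which of these starts lay under a peak. RefSeq windows of assembly GRCm38.p6, from 250 bases before to 50 bases after a start site, were found for 7 of the 8 genes, with 10 windows in all. Only bases before the start are printed, 5′ to 3′ along the gene's strand. For Cdkn3 the printed bases end at 46760460, just outside the gene's span, and do not reach the start at 46760541. The letters searched for an E2F site were TTTCCCGC, TTTCGCGC, TTTGCCGC and TTTGGCGC. Capitals mark the shorter core of these, which is each of them without its first T, and the GC box GGGCGG, all searched on both strands. Every full match therefore holds a core match. Lockd is a long non-coding RNA gene downstream of Cdkn1b and is shown because a strong peak just downstream of Cdkn1b covered its start. Cdkn2a has an outer start, which begins the transcript of the p19ARF protein, and an inner start for p16INK4a.
Cdkn1a, before the inner start, chr17:29093519-29093768, plus strand: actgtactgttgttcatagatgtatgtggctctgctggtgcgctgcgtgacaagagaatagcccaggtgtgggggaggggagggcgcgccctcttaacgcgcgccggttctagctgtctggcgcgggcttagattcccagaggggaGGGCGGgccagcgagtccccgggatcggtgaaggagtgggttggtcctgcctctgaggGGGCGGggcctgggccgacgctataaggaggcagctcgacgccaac
Cdkn1b, chr6:134920151-134920400, plus strand: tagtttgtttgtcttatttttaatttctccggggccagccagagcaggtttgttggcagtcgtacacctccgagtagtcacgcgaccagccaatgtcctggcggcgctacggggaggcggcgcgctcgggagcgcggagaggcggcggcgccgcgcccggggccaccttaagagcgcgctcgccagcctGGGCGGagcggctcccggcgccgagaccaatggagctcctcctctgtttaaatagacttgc
Lockd, chr6:134928842-134929091, plus strand: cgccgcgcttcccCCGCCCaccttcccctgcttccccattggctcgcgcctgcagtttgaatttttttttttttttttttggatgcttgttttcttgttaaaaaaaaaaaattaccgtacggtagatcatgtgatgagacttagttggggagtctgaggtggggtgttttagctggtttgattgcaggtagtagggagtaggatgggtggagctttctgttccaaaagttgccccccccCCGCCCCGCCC
Cdkn2c, before the outer start, chr4:109666757-109667006, minus strand: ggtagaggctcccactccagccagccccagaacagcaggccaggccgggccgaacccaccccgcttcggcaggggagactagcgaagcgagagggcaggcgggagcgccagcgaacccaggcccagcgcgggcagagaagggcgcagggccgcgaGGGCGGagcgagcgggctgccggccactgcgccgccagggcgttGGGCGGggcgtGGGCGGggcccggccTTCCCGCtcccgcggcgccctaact
Cdkn2d, 30 bases that begin 122 bases before the start, chr9:21291302-21291331, minus strand: ctctGGGCGGggcctgGGGCGGgcttgcct
Cdkn3, chr14:46760291-46760460, plus strand: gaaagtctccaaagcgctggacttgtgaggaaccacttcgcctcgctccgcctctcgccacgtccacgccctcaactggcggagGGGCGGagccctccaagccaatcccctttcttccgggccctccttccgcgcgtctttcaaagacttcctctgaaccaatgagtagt
Cdkn2a, before the outer start, chr4:89294620-89294869, minus strand: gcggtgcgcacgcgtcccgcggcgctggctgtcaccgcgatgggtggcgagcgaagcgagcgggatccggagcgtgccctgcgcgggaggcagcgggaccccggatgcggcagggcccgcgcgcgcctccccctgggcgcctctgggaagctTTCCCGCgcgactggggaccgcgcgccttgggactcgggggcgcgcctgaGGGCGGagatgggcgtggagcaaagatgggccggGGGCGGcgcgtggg
Cdkn2b, chr4:89311033-89311282, minus strand: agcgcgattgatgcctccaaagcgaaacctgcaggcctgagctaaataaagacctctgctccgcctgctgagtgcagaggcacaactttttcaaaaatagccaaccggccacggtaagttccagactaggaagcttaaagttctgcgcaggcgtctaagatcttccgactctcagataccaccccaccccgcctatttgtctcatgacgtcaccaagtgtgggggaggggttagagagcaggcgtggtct
The Cdkn2a window printed here was the only 1 of the 10 windows with a full E2F match, TTTCCCGC, whose first base lay 99 bases before the start. No library listed a peak there.

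Consensus E2F1 peaks, union intervals that hold overlapping peaks of both E2F1 libraries, were found at 4 of the 8 genes: Cdkn1a, Cdkn1b, Cdkn2c and Cdkn2d. Of all protein-coding genes, 34.4% had such a peak by the same rule, and 25.9% of those no longer than the longest inhibitor gene. E2F1 replicate 1 had peaks at these 4 genes, where 36.9% of all genes had one. E2F1 replicate 2 had peaks at the same 4 and at Cdkn3, a total of 5, where 38.2% of all genes had one and 40.7% had one in either list. Cdkn1c, Cdkn2a and Cdkn2b had none in any list. With 8 genes, the count is a description and is not distinguished here from the share of all genes.

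**Figure D1:**
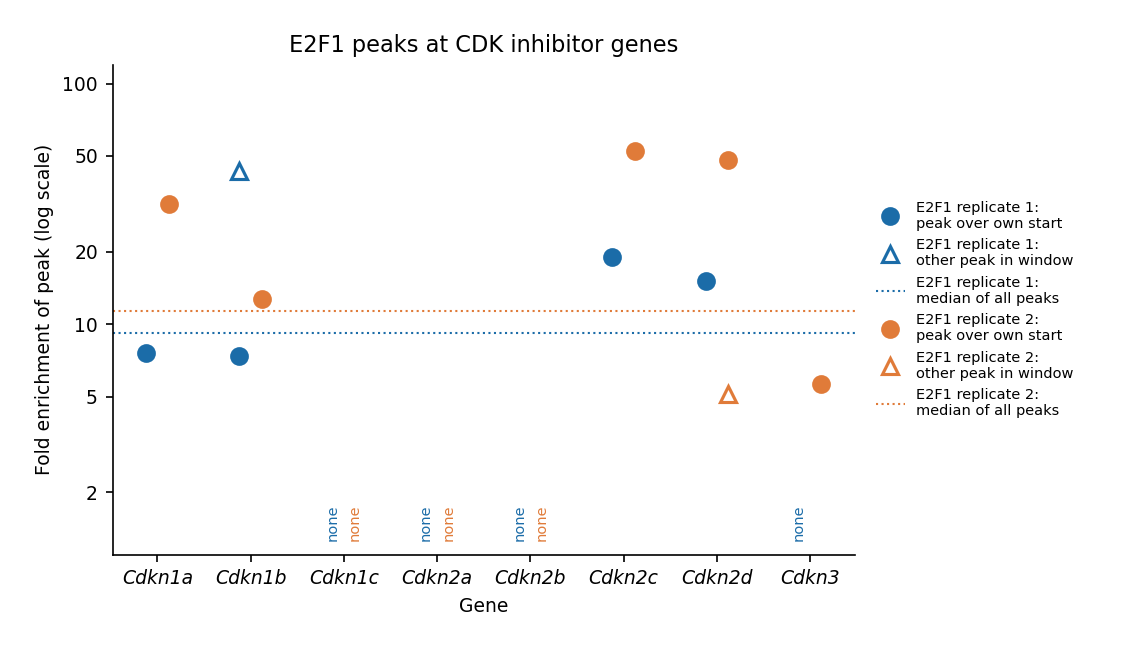
Fold enrichment (log scale) of every E2F1 peak assigned to the 8 CDK inhibitor genes, by library; filled circles cover a start site of the gene, open triangles do not, and dotted lines give each list's median fold. The start-site peaks of Cdkn2c and Cdkn2d lay above the median in both libraries, those of Cdkn1a and Cdkn1b below it in replicate 1 and above it in replicate 2, and "none" marks genes without a peak.

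Fold enrichment is the authors' ratio of read pileup to local background at a peak's summit, and it ranks peaks within a list. The median fold was 9.19 over the 7836 peaks of E2F1 replicate 1 and 11.3 over the 8027 peaks of replicate 2. At the 7006 consensus peaks the fold in replicate 2 was typically 1.26 times that in replicate 1 (median log2 ratio 0.34, SD 0.64 over peaks). Percentiles within a list are therefore given beside each fold.

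Positions are GRCm38, counted from 1. Cdkn1a (gene ID 12575, chromosome 17, 29090979 to 29100722) encodes p21, the inhibitor that p53 induces after DNA damage. Each E2F1 library had 1 peak there, which covered the inner of its start sites, at 29093769, and not the outer one. In replicate 1 the peak ran from 29092920 to 29095950 with a fold of 7.57, at percentile 36.6 of its list. In replicate 2 it ran from 29093228 to 29095884 with a fold of 31.6, at percentile 90.7. By fold the peak was thus among the weaker ones of its list in replicate 1 and among the strong ones in replicate 2. By the authors' peak score, which is 10 times the −log10 q-value, it stood at percentile 55.6 in replicate 1 and 94.7 in replicate 2. The ratio of the folds was 4.17, higher than at 99.6% of consensus peaks. The mean fold was 19.6 ± 17.0 (SD, n = 2). The summits lay 894 and 1740 bp downstream of the inner start, inside the gene, and 846 bp from each other. Over all consensus peaks the median distance between the summits of the replicates was 55 bp.

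The reads behind these folds differed in both parts of the ratio at Cdkn1a. They are values at each list's own summit, and those summits were 846 bp apart, so the replicates were not compared at 1 position. The pileup at the summit was 65 reads (exact Poisson 95% interval 50.2 to 82.8) in replicate 1 and 154 (131 to 180) in replicate 2. The local background was 7.71 reads in replicate 1, which is 4.17 times the lowest background of that list, and 3.91 in replicate 2, 2.11 times the lowest. The pileup was higher and the background lower in replicate 2. Over all consensus peaks the median pileup was 51 reads in either library, and the median background was 4.24 reads in replicate 1 and 2.87 in replicate 2, so the lower background of replicate 2 was not particular to Cdkn1a. The intervals here and below cover counting error only, since reads were not tied to molecules.

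Cdkn1b (gene ID 12576, chromosome 6, 134920401 to 134925525) encodes p27, the Cip/Kip inhibitor that accumulates in resting cells. Both E2F1 libraries had a peak over its only start in the table, below the list's median fold in replicate 1 and just above it in replicate 2. It ran from 134919550 to 134922494 in replicate 1, with a fold of 7.39 at percentile 35.2 and 46 reads (33.7 to 61.4) at the summit. In replicate 2 it ran from 134919794 to 134920900, with a fold of 12.7 at percentile 56.0 and 71 reads (55.5 to 89.6). The summits lay 463 bp downstream and 113 bp upstream of the start, 576 bp apart, and the mean fold was 10.0 ± 3.73 (SD, n = 2). The replicates differed by 1.71 times here, closer to the 1.26 of all consensus peaks than at Cdkn1a.

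A stronger site lay downstream of Cdkn1b, at the start of Lockd, 134929092, a gene whose promoter region has been described as acting on Cdkn1b in cis. In replicate 1 its peak ran from 134926335 to 134930289, with a fold of 43.4 that ranked 59 of 7836. It came within 810 bp of Cdkn1b, just inside the window of 1000 bp. In replicate 2 the peak ran from 134926729 to 134929525, with a fold of 42.1 that ranked 349 of 8027. Its edge was 1204 bp from Cdkn1b, just outside the window, so that list assigns it to Lockd and not to Cdkn1b. The folds of the replicates were nearly equal, with a mean of 42.7 ± 0.933 (SD, n = 2), and the consensus interval ranked 145 of 7006 by mean fold. The summits lay 671 and 772 bp upstream of the Lockd start, with 126 reads (105 to 150) in replicate 1 and 155 (132 to 181) in replicate 2. The local background there was 1.93 and 2.71 reads. The peak over the start of Cdkn1b had the lower fold of these sites in both libraries.

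**Figure D2:**
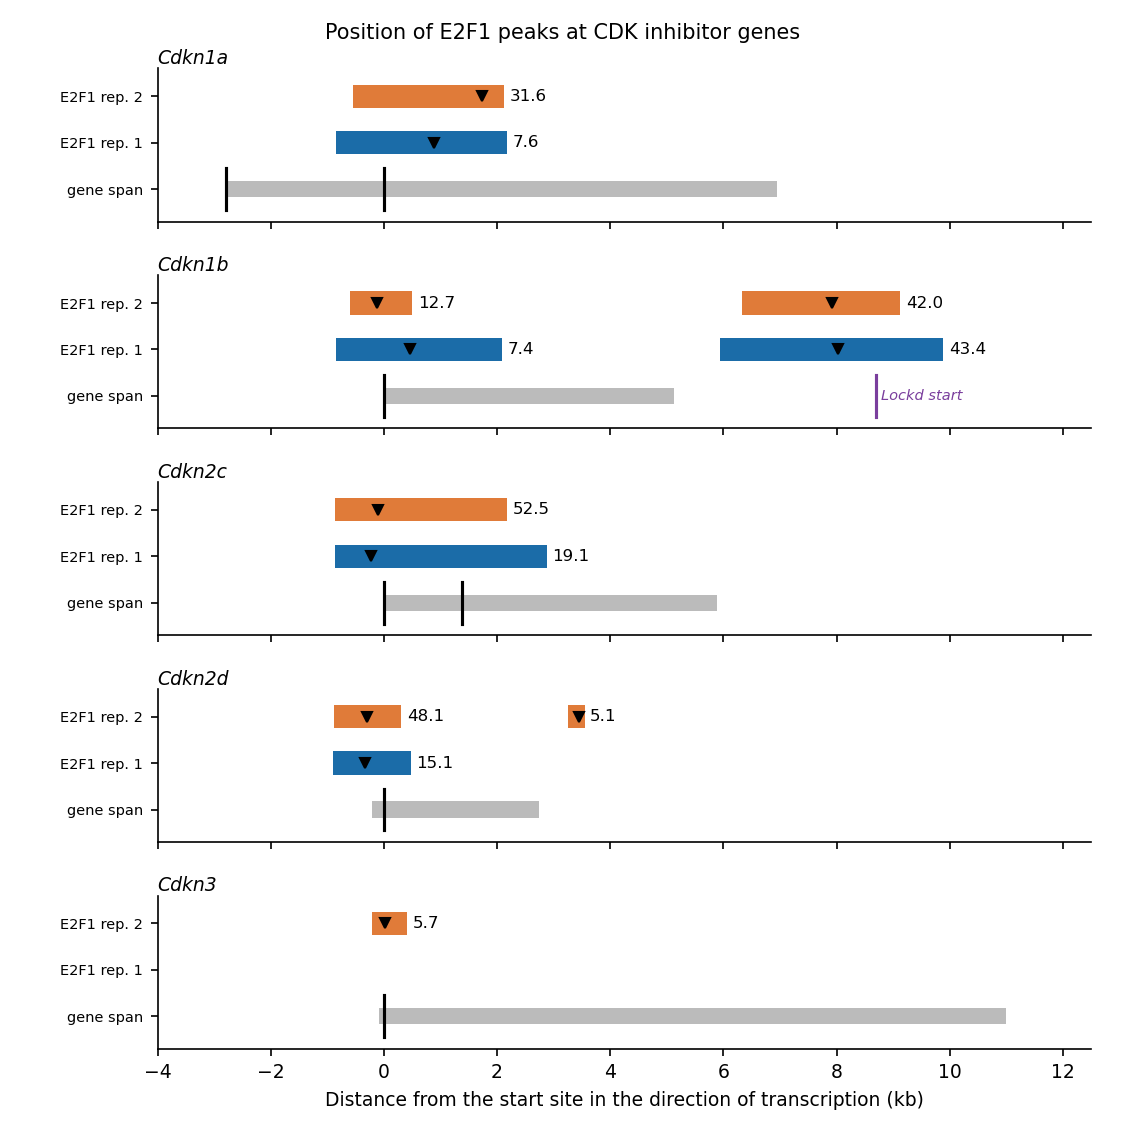
Peaks of the E2F1 libraries at 5 CDK inhibitor genes, drawn against distance from a start site in kb (inner start of Cdkn1a, outer start of Cdkn2c); grey bars are gene spans, black lines start sites, coloured bars peaks with their fold, and triangles summits. Peaks cover a start of each gene, and of the 2 intervals drawn near Cdkn1b the one at the Lockd start has the higher fold in both libraries.

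Cdkn1c (gene ID 12577, chromosome 7, 143458339 to 143461059) encodes p57, an imprinted Cip/Kip inhibitor of embryonic growth. No library listed a peak inside it or within 1000 bp. The nearest E2F1 peak began 87262 bp away, at 143548321 in both replicates, with folds of 13.1 and 37.4. The RefSeq windows do not cover every gene, and the start nearest to its summit among them was that of Phlda2.

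Among the INK4 genes, Cdkn2c and Cdkn2d had start-site peaks above the list's median fold in both E2F1 libraries, and Cdkn2a and Cdkn2b had none. Cdkn2c (gene ID 12580, chromosome 4, 109660876 to 109666756) encodes p18, and its peak covered both of its start sites. In replicate 1 it ran from 109663881 to 109667623, with a fold of 19.1 that ranked 1007 of 7836, at percentile 87.1. In replicate 2 it ran from 109664581 to 109667618, with a fold of 52.5 that ranked 166 of 8027, at percentile 97.9. Both libraries placed it in the upper part of their lists. The ratio of the folds was 2.75, higher than at 95.5% of consensus peaks. The summits lay 222 and 105 bp upstream of the outer start, at 99 reads (80.5 to 121) and 195 reads (169 to 224). The mean fold was 35.8 ± 23.6 (SD, n = 2) and the consensus interval ranked 283 of 7006. Among peaks over a gene's own start it had the highest fold of the 8 genes in each library, while the Lockd site near Cdkn1b ranked higher by mean fold. The E2F core TTCCCGC in the Cdkn2c sequence above began 25 bases before the outer start, under the peak of both libraries.

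The 3 protein-coding genes whose consensus peak had the folds most like those of Cdkn2c in the 2 E2F1 libraries were H2az2, Mpdz and Fnbp1l. The folds were 19.2 and 52.8 at H2az2, 18.9 and 50.4 at Mpdz, and 19.98 and 53.2 at Fnbp1l. Likeness was the Euclidean distance of the log2 folds, which was at most 0.07 for these genes.

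Cdkn2d (gene ID 12581, chromosome 9, 21288459 to 21291421) encodes p19INK4d, an inhibitor of CDK4 and CDK6 that is distinct from p19ARF. In replicate 1 its peak ran from 21290738 to 21292102, with a fold of 15.1 at percentile 78.2. In replicate 2 it ran from 21290900 to 21292087, with a fold of 48.1 at percentile 97.2. By the authors' peak score it stood lower in replicate 1, at percentile 60.3, and at percentile 95.9 in replicate 2. The summits lay 328 and 300 bp upstream of the start at 21291209, only 28 bp from each other. Pileups were 42 reads (30.3 to 56.8) in replicate 1 and 142 (120 to 167) in replicate 2, over backgrounds of 1.85 and 1.97 reads, both near the lowest of their lists. Unlike at Cdkn1a, the backgrounds were alike and the pileups differed. The mean fold was 31.6 ± 23.4 (SD, n = 2), and the ratio of 3.19 between replicates was higher than at 97.9% of consensus peaks.

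A further peak of replicate 2, from 21287663 to 21287960, came within 499 bp of the other end of Cdkn2d. Its summit lay 209 bp downstream of the start of Kri1, a gene of ribosome assembly, and the fold was 5.13 at percentile 5.15. No peak of replicate 1 was assigned to that end.

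**Figure D3:**
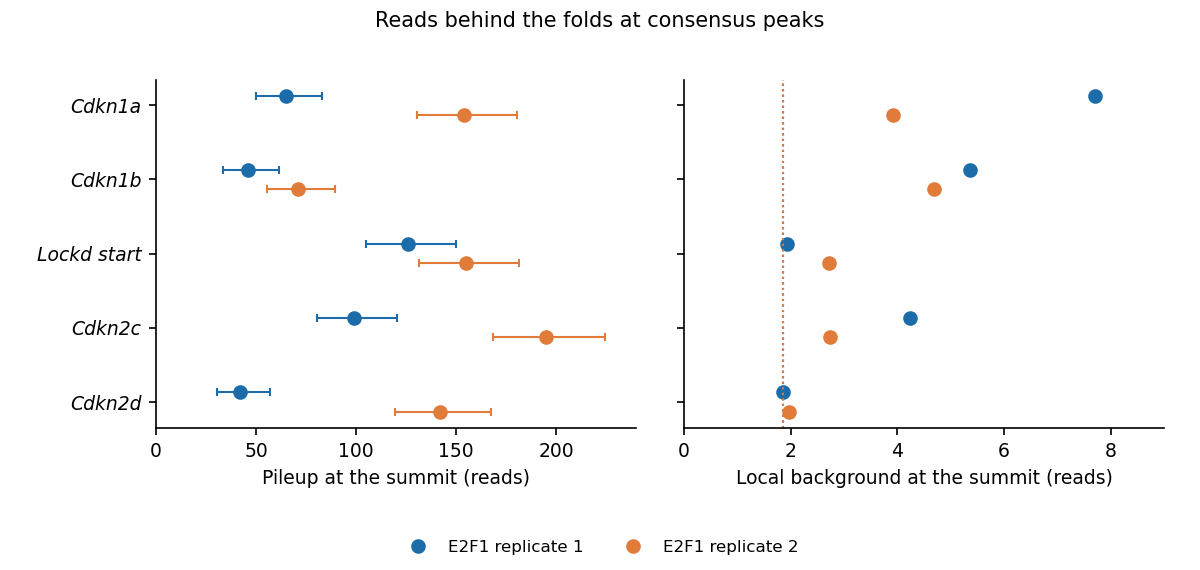
Pileup at the summit with its exact Poisson 95% interval (left) and local background (right), both in reads, at the consensus peaks near CDK inhibitor genes; dotted lines mark the lowest background of each list, 1.85 and 1.86 reads. Pileups were higher in replicate 2 at each of the 5 sites, with overlapping intervals at the start of Cdkn1b and at Lockd, while backgrounds were higher in replicate 1 at Cdkn1a, Cdkn1b and Cdkn2c.

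Cdkn2a (gene ID 12578, chromosome 4, 89274473 to 89294619) and Cdkn2b (gene ID 12579, 89306289 to 89311032) lie side by side and encode p16INK4a with p19ARF, and p15INK4b. No library listed a peak inside these genes or within 1000 bp. The nearest E2F1 peak was at the start of Mtap, a gene of methionine salvage, 136048 bp from Cdkn2a in replicate 1 and 136602 bp in replicate 2. Its folds were 8.98 and 7.91, with 53 and 62 reads over local backgrounds of 5.01 and 6.97 reads. On the other side the next consensus peak began 4023476 bp from Cdkn2b. The stretch without a consensus peak was 4.20 Mb long, the fifth longest of 472 gaps between consensus peaks on the chromosome, whose median was 90.1 kb. It touched 8 protein-coding genes. Replicate 2 alone listed a weak peak within this stretch, from 91374646 to 91375292, with a fold of 6.65. Peak lists hold no values between peaks, so a missing locus and a locus without binding cannot be told apart from them.

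**Figure D4:**
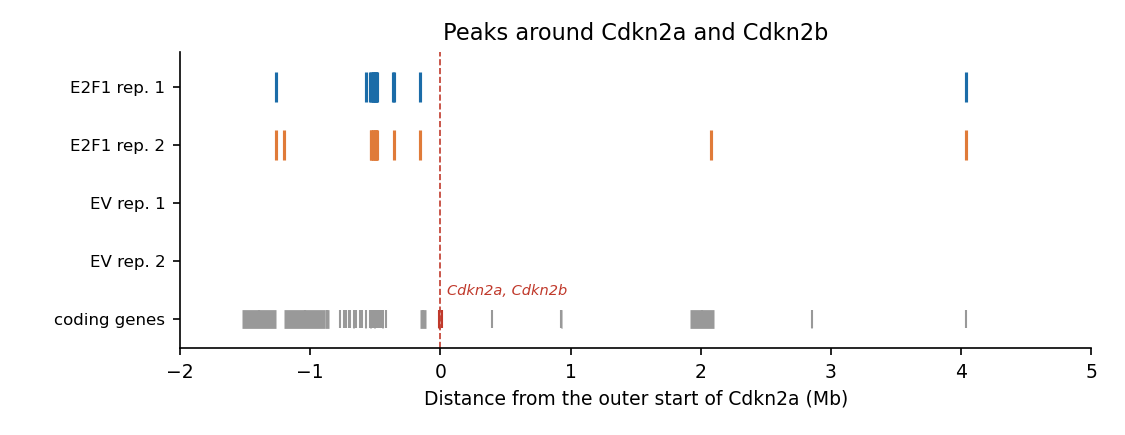
Summits of peaks (ticks) in each library and protein-coding genes (bars and ticks, Cdkn2a and Cdkn2b in red) against distance in Mb from the outer start of Cdkn2a. The E2F1 libraries have peaks up to the start of Mtap on the left and none over Cdkn2a and Cdkn2b, and the EV libraries have none in the region drawn.

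Cdkn3 (gene ID 72391, chromosome 14, 46760461 to 46771530) encodes KAP, a phosphatase that acts on CDK2. Only E2F1 replicate 2 listed a peak, from 46760333 to 46760944, with its summit 14 bp downstream of the start at 46760541. Its fold was 5.66 at percentile 9.65, from 20 reads (12.2 to 30.9) over a background of 2.71. The −log10 p of 11.7 was close to the value of 10 at which every list begins. In replicate 1 the nearest peak was 16183 bp away, and at that list's lowest background a peak needed at least 16 reads to be listed. Presence in 1 list only is therefore not a difference between replicates that these lists can show.

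Consensus intervals at 3 of the 4 genes with a consensus peak were wide. The consensus interval was 3743 bp at Cdkn2c, 3031 bp at Cdkn1a and 2945 bp at the start of Cdkn1b, ranking 43, 114 and 127 of 7006 by width. At Lockd it was 3955 bp and ranked 30. At Cdkn2d it was 1365 bp and ranked 2257, nearer to the median of 1092 bp. The width at the start of Cdkn1b came from replicate 1, whose peak was 2945 bp. In replicate 2 the peak there was 1107 bp and ranked 2184 of 8027 by width. The start peak of Cdkn2d in that list was 1188 bp and ranked 1822. Width was not part of the rule, though a wide peak reaches a window more readily than a narrow one.

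In the EV libraries, 0 of the 8 genes had a peak. The EV lists held 70 and 358 peaks, and 0.0366% and 0.407% of protein-coding genes had one (0.434% in either), so a count of 0 is near this background. Binding, the yield of the precipitation and sequencing depth cannot be told apart as sources of the short EV lists. An exact two-sided permutation test of 2 against 2 libraries cannot go below p = 0.333, and none was run on the members. At the lowest background of each EV list, a peak needed 17 reads in replicate 1 and 13 in replicate 2 to be listed. Weaker binding in EV cells was not detectable from these lists.

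Promoter composition was compared over all 32817 windows, of which 22.5% overlapped a consensus peak. The full E2F letters were held by 2.26% of all windows, and by 5.8% of those under a consensus peak. The shorter core was held by 9.57% of windows, and by 23.1% of those under a peak. Among the 10 windows of the inhibitor genes, the core was in the outer windows of Cdkn2a and Cdkn2c only. The peaks at Cdkn1a, Cdkn1b and Cdkn2d covered windows without these letters, which says nothing of bases outside the windows, where both summits of Cdkn1a and Cdkn2d and the replicate 1 summit of Cdkn1b lay. The Lockd window held 1 core match, on the opposite strand after its start.

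GC boxes were in 8 of the 10 windows of the inhibitor genes, beside 35.6% of all windows and 76.4% of those under a consensus peak. The exceptions were the outer start of Cdkn1a and the inner start of Cdkn2c. CCAAT, on either strand, was in 5 of the 10 windows and in 37.4% of all. Cdkn3 held 4 matches of it and 1 of TTTGAA, letters of the cell cycle homology region (TTTGAA or TTCGAA), which were in 19.2% of all windows and, beside Cdkn3, at Cdkn2b. The ratio of observed to expected CpG had a median of 0.860 in windows under a consensus peak and 0.274 in the others. It was 1.04 at Cdkn1b, 0.823 at the outer start of Cdkn2c, 0.786 at the inner start of Cdkn1a and 0.681 at Cdkn2d. The inner start of Cdkn2c, also under a consensus peak, had a lower ratio of 0.553. At the outer start of Cdkn1a, which had no peak, it was 0.0892. At Cdkn2b and the outer start of Cdkn2a, also without a peak, it was 0.722 and 1.04.

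The genes around the inhibitors in the pathway had consensus peaks at larger shares, given here as counts beside the 34.4% of all protein-coding genes. Among the CDKs and cyclins that the inhibitors act on, 10 of 13 had one, with the highest fold percentile at Ccne1 (folds of 65.0 and 131.6) and none at Ccna1, Ccnd1 and Ccnd2. Of the pocket proteins and E2F and DP factors 12 of 13 had one, E2f7 standing highest (53.9 and 106.9) and E2f6 lacking one. Of the transcriptional regulators of the inhibitors 10 of 13 had one, with Smad2 highest (37.6 and 32.2) and Foxo4, Id1 and Tbx2 without.

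Skp2, the ubiquitin ligase part that marks p27 for breakdown, had folds of 24.0 and 46.6, the highest of a list of ligase genes in which 9 of 10 had a consensus peak and Rnf123 had none. All 9 Polycomb genes linked to silencing of the Cdkn2a locus had one, with Eed highest (44.6 and 70.7). Of 8 other genes whose products bind or restrain CDKs 7 did, with Cdk2ap1 highest (24.3 and 29.2) and Cables1 without. The inhibitor genes had 4 of 8, the lowest share of these lists, and the difference was not tested. The 8 include Cdkn2a, whose locus the line is reported to lack, and its neighbour Cdkn2b. The lists were not matched for gene length, and the share was 25.9% over all genes no longer than the longest inhibitor gene. No gene of these lists had an EV peak, where 0.434% of all protein-coding genes had one in either EV list. A count of 0 is near this background.

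**Figure D5:**
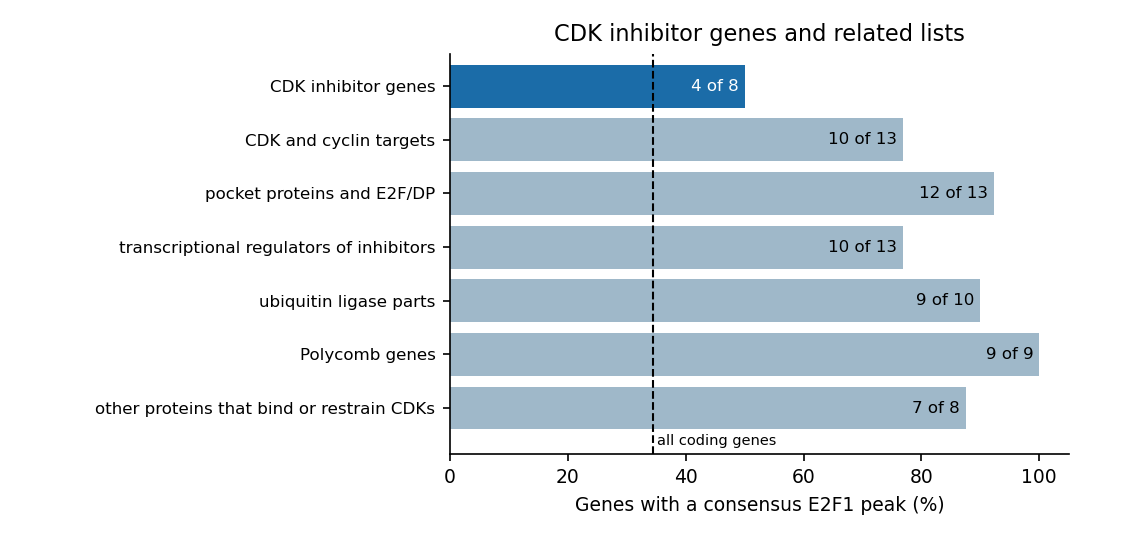
Percent of genes with a consensus E2F1 peak inside or within 1000 bp of the span, for the CDK inhibitor genes and 6 related lists, with counts in the bars; the dashed line is the 34.4% of all protein-coding genes. CDK inhibitor genes stand at 50% and the related lists between 76.9% and 100%.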

How the data were processed

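Peak lists of 4 ChIP-seq libraries (E2F1 and EV, 2 each) were used, grouped by their titles. Per the submitters' processing notes, FastQC, Trimmomatic, Bowtie2, MACS2 and ChIPseeker were used with build mm10. Antibody, controls and parameters are not given in the sources used here. The deposited columns used were the authors' peak score, which is 10 times the −log10 q-value, their fold (a ratio to local background), −log10 p and −log10 q, and the summit offset. The smallest −log10 p of each list lay just above 10, so weaker sites are missing. Depth is unknown. Pileup and background were solved from fold and −log10 p under a Poisson tail with a pseudocount of 1, which gave whole reads, within 5% of a step, for 95.7% to 99.99% of peaks. The solver was tested on simulated data. The lowest background was 1.85 and 1.86 reads in the E2F1 lists and 2.20 and 1.18 in the EV lists. Gene spans came from RefSeq GRCm38.p6, the same assembly as mm10. Consensus peaks overlapped by at least 1 bp. All 8 genes were named with every assigned peak. Other genes were named where they share or flank a peak, lead or are missing from a related list, or are most like Cdkn2c. Members and lists were chosen with earlier results of these data known. Alternatives covered the window, score, summit, overlap and replicates. Python 3.11.15, pandas 2.3.3, NumPy 2.4.6 and SciPy 1.17.1 were used.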

Additional observations from a re-analysis of the deposited data

How the results depend on the processing

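Over 19 results, 72 alternatives were computed. None of the 30 alternatives on counts of genes moved a count by more than 1.5 times, for windows of 0, 500, 2500 and 5000 bp, a score of at least 312 (the median of all E2F1 peaks), summits in place of peaks, the overlap rules and lists left out. Without one E2F1 replicate no consensus can be formed, and the count is that of the other list. It was 5 without replicate 1 and 4 without replicate 2, which repeats the counts of the single lists. The count with an EV peak was 0 over both EV lists together, so it had to stay at 0 without either EV replicate. It also had to stay at 0 with narrower windows, summits or the stricter score. Only the windows of 2500 and 5000 bp could have moved it, and they did not. With centres within 200 bp, 3 genes had a consensus peak, Cdkn2c being lost. Under that rule, under a reciprocal overlap of 50% and at the stricter score, Cdkn1b kept its consensus peak only through the Lockd site. At the stricter score Cdkn3 was lost in E2F1 replicate 2. For single genes, leaving out 1 of 2 libraries gives the value of the other, which by construction lies within 1 SD of their mean. These values ran from 7.57 to 31.6 for the fold of Cdkn1a and from 36.6 to 90.7 for its percentile. The fold ran from 12.7 to 43.4 at Cdkn1b, where the libraries have different highest-scoring peaks, from 19.1 to 52.5 at Cdkn2c and from 15.1 to 48.1 at Cdkn2d. The mean fold percentile of Cdkn1b fell from 77.6 to 45.6 when the peak over its own start stood for it in both lists, an alternative chosen after the data were seen, and its mean fold went from 28.0 to 10.0. Cdkn2c gained an E2F match, from 0 to 1, with the shorter core. Cdkn1a could not be ranked among peaks at gene boundaries, since its peak lies farther inside. No paired analysis was possible because the results come from no test.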

Other observations

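Upstream of Cdkn1b, both E2F1 libraries also listed a peak at the start of Gpr19, which lies on that side of the gene and was named after its values were seen. Its folds were 21.5 in replicate 1 and 47.9 in replicate 2, with summits 9 and 28 bp from the start at 134897925. It lay 21577 bp from Cdkn1b in replicate 1. Within 30 kb of Cdkn1b each E2F1 library thus listed 3 peaks, of which the one over the start of Cdkn1b had the lowest fold in both.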
